A study of Nothobranchius furzeri with 185 samples.

Results

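The genes described here are 6 genes named for macrophages, the phagocytic immune cells of most tissues, and for microglia, their counterparts in the brain: c1qb, c1qc, mrc1b, irf8, ncf1 and CD68. They were measured by RNA sequencing in the turquoise killifish *Nothobranchius furzeri*, a short-lived fish used to study aging. Members were found by symbol in the deposited gene table, without regard to case and without a trailing copy number, and each symbol had 1 locus, so that 6 of 23564 loci were members (22036 loci had a symbol). In that table each of the 6 symbols was assigned to its killifish locus by best bidirectional hit, so that roles known from mammals or zebrafish are carried over by sequence likeness. The loci are Nfu_g_1_020958 (c1qb), Nfu_g_1_021707 (c1qc), Nfu_g_1_020189 (mrc1b), Nfu_g_1_003789 (irf8), Nfu_g_1_020239 (ncf1) and Nfu_g_1_022531 (CD68).

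Macrophages and microglia take up dying cells, microbes and debris, and they present or destroy what they take up. In mammals c1qb and c1qc encode the B and C chains of C1q, which form the molecule that starts the classical complement cascade together with the A chain, and tissue macrophages and microglia are its main source. The mannose receptor encoded by mrc1b binds sugars on microbes and glycoproteins, and in mammals the related gene marks tissue macrophages and liver sinusoidal endothelium, while in zebrafish mrc1 genes also mark endothelium of veins and lymphatics. The transcription factor encoded by irf8 is needed for macrophage and microglial development in mouse and zebrafish, the ncf1 protein (p47phox) is the cytosolic organizer of the phagocyte NADPH oxidase in macrophages and neutrophils, and CD68 is a lysosomal membrane glycoprotein that is abundant in macrophages.

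The series held 185 libraries in 25 groups. In the aging arm, liver and skin were taken from untreated fish of 5, 12, 20, 27 and 39 weeks, with 5 fish per tissue and age, 38 fish in all, of which 12 gave both tissues. In the rotenone arm, 5 fish per group gave brain, liver and skin each: fish of 27 weeks in 15 pM rotenone, an inhibitor of mitochondrial complex I dissolved in DMSO, fish of 27 weeks in DMSO alone, and fish of 9 weeks in DMSO alone, each kept so for the last 4 weeks. Water was partly renewed and the compounds added anew through the treatment, and the number of tanks is not given, so tank and treatment cannot be told apart. In the fin arm the tail fins of 45 untreated fish were clipped at 20 and at 10 weeks, and the fish fall into 15 that died at 57.3 to 71.9 weeks (group3), 15 that died at 45.1 to 50.3 weeks (group2) and 15 that died at 28.7 to 36.4 weeks (group1). The labels used here give neither strain nor sex.

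Counts assigned to genes per library lay between 14.97 and 54.95 M, with a median of 30.51 M. In the DMSO fish of 9 weeks, summed neuronal markers came to 4530 to 5340 CPM (counts scaled to library size) in brain, against 139 to 286 CPM in liver and 30.2 to 50.7 CPM in skin. Hepatocyte markers came to 315000 to 514000 CPM in liver, and keratinocyte markers to 25200 to 44300 CPM in skin, so that each tissue label had its markers. Some libraries stood apart from their groups. The livers of JM75, JM85 and JM61 in the aging arm and of MC1 and MC9 in the rotenone arm had NADPH oxidase subunit sums of 563, 370, 675, 405 and 635 CPM, against 36.7 to 270 CPM in the other livers. The fin clips of LS45 and LS42 at 20 weeks and of LS23 and LS10 at 10 weeks had far less mrc1b than the other clips. The alternatives without these livers and fish were chosen after seeing the data. Besides them, the liver of JM103 had a yolk gene sum of 89100 CPM, against at most 20.8 CPM in the other livers of 5 weeks. The skin of JM109 had a hepatocyte gene sum of 20200 CPM, against 180 to 223 CPM in the other skins of 12 weeks.

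All 6 members had counts in every library and passed the low-count filter in every comparison. Their median counts per library were 519 for c1qb, 300 for c1qc, 3878 for mrc1b, 219 for irf8, 460 for ncf1 and 8571 for CD68. The lowest single count was 9, for ncf1, so low levels in brain carry the largest counting error. The tissues are bulk samples, in which fewer cells of a type and less RNA per cell cannot be told apart.

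Per length, in the RPKM values that the authors deposited (reads scaled by gene length and library size), CD68 was the most abundant member in each tissue by its median, and ncf1 and irf8 were the least abundant. CD68 had a median level of 11.17 RPKM over 15 brains, 62.78 RPKM over 40 livers, 42.36 RPKM over 40 skins and 61.4 RPKM over 90 fins. The median level of mrc1b was 5.01 RPKM in brain, 6.72 RPKM in liver, 39.58 RPKM in skin and 46.72 RPKM in fin. The mannose receptor gene thus came close to CD68 in skin and fin and lay far below it in liver.

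The chains of C1q lay near each other per length. Median levels of c1qb were 5.27, 17.5, 23.86 and 11.68 RPKM in brain, liver, skin and fin, and those of c1qc were 4.47, 12.32, 16.26 and 10.04 RPKM in the same order. The ratio of c1qb to c1qc had a median of 0.968 in brain, 1.34 in liver, 1.42 in skin and 1.23 in fin, which sets the chains side by side within each library. For irf8 the median levels were 1.84, 2.92, 3.24 and 3.22 RPKM in brain, liver, skin and fin. For ncf1 they were 0.95, 2.92, 8.65 and 7.08 RPKM.

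**Figure D1:**
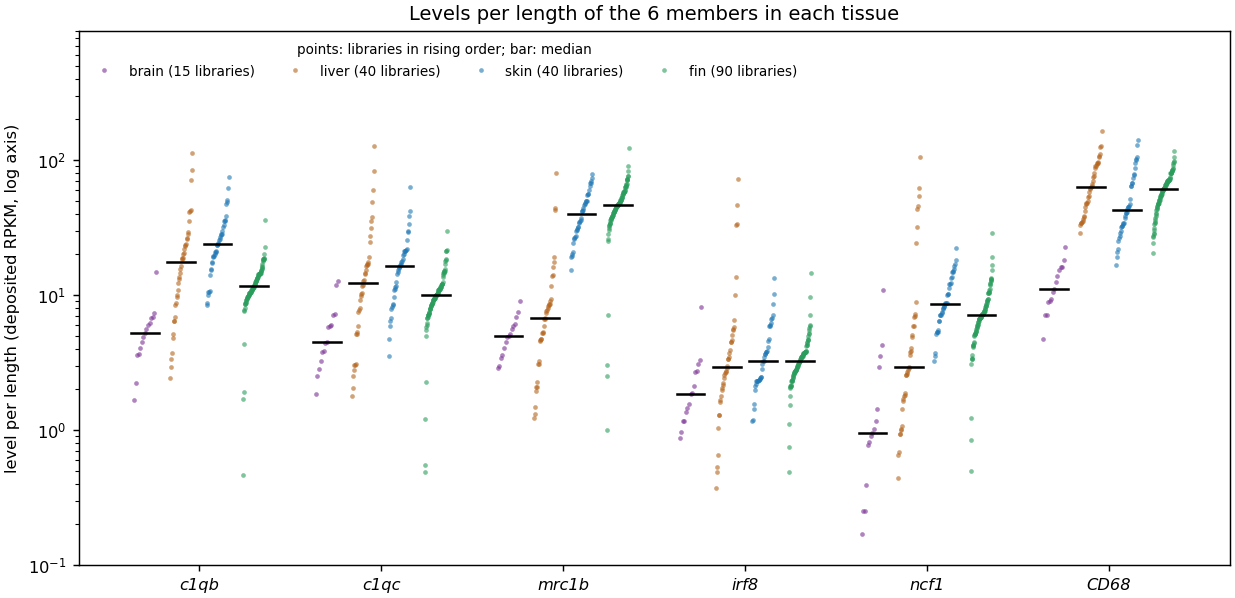
Deposited RPKM of the 6 members in every library, by tissue, on a log scale; each point is 1 library and each bar the median of the tissue. The brain has the lowest median of the 4 tissues for all 6 members (5.01 RPKM for mrc1b and 11.17 RPKM for CD68), and the livers reach far above their median for irf8 and ncf1.

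Ordered by group mean over the 25 groups, brain of 9-week DMSO fish was lowest for 5 members: 3.91 ± 2.11 RPKM for c1qb, 2.85 ± 0.744 for c1qc, 1.18 ± 0.284 for irf8, 0.49 ± 0.376 for ncf1 and 10.7 ± 4.54 for CD68 (SD, n = 5). The exception was mrc1b, for which the liver of 12 weeks had 2.76 ± 2.32 RPKM and this brain group 3.38 ± 0.477 RPKM. At the top of the order stood the skin of 27-week DMSO fish for c1qb (47.3 ± 18 RPKM) and mrc1b (57.0 ± 14.2 RPKM), and livers for the others. The 20-week liver had 39.7 ± 50.2 RPKM of c1qc, and the 27-week untreated liver 16.3 ± 31.3 RPKM of irf8, 27.7 ± 44 RPKM of ncf1 and 99.8 ± 55.6 RPKM of CD68. These high liver means, other than that of CD68, rest on single fish, since their SD exceeds the mean.

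Between most neighbours in this order the means differed by no more than the larger SD of the pair. This held for all 24 neighbouring pairs for c1qb, mrc1b, irf8 and ncf1. For c1qc the brain of 27-week rotenone fish (4.92 ± 0.978 RPKM) stood above the brain of 9-week DMSO fish, and for CD68 the skin of 9-week DMSO fish (26.8 ± 6.56 RPKM) stood above the brain of 27-week DMSO fish (14.7 ± 5.69 RPKM). The fin groups lay close together, at 9.92 to 14.2 RPKM for c1qb, 8.42 to 13 for c1qc, 40.5 to 53.3 for mrc1b, 3.03 to 4.34 for irf8, 6.32 to 9.25 for ncf1 and 56.8 to 62.8 for CD68.

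Tissues were then compared in the 5 DMSO fish of 9 weeks, each of which gave all 3 tissues, with edgeR's quasi-likelihood test and Benjamini-Hochberg adjustment over all loci, as in every comparison that follows; a locus was called at an adjusted p under 0.05. All 6 members were called lower in brain than in liver, as were 36.1% of loci. CD68 had 21.39, 39.06, 46.2, 42.21 and 13.89 CPM in brain, against 790.7, 719.3, 374.9, 347.2 and 344.6 CPM in liver (log2 fold change -3.98 ± 0.37 SE, adjusted p = 4.7e-08). No brain value came near a liver value.

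The other differences of brain from liver on the log2 scale were -3.64 ± 0.54 for c1qb, -3.63 ± 0.53 for c1qc, -2.28 ± 0.27 for mrc1b, -3.99 ± 0.94 for irf8 and -5.61 ± 1.17 for ncf1. The last 2 are widened by the liver of MC1, which had 144.3 CPM of ncf1, while the other 4 livers had 1.719 to 5.889 CPM, and which stood as far above the others' 1.412 to 6.246 CPM of irf8. Brains and livers overlapped for irf8, with RPKM medians of 1.16 in brain and 1.29 in liver. DESeq2 called 4 of the 6 members and gave no adjusted p for the other 2. The deposited RPKM, which are not corrected for composition, differed less. Their means in liver and brain were 18.7 and 3.91 for c1qb, 6.05 and 3.38 for mrc1b, and 62.7 and 10.7 for CD68. The size of these differences thus depends on the scaling.

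Against skin, brain was lower for 5 members at a background of 36.1% of loci called lower. For mrc1b the brain had 5.702, 6.086, 7.213, 8.159 and 6.585 CPM, against 168.6, 156.0, 161.8, 175.4 and 204.0 CPM in skin, a 25.7-fold difference (log2 -4.68 ± 0.29, adjusted p = 4.85e-10). All skins lay far above all brains. In RPKM the mrc1b means were 52.8 in skin and 3.38 in brain, a smaller difference. The difference was -3.42 ± 0.54 for c1qb, -3.49 ± 0.53 for c1qc, -4.47 ± 1.12 for ncf1 and -2.03 ± 0.34 for CD68. For irf8 it was -1.99 ± 0.88 (adjusted p = 0.0511), and -1.92 with the fish as a replicate block (adjusted p = 0.0269).

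Skin and liver differed in which member was high, with 64.1% of loci called in either direction. The mannose receptor gene was 5.3-fold higher in skin, where no library fell under 156.0 CPM, than in liver, where mrc1b had 41.75, 13.44, 51.98, 24.98 and 31.23 CPM (log2 2.40 ± 0.27, adjusted p = 6.64e-07). CD68 was lower in skin, with 146.7, 153.8, 101.3, 160.9 and 101.6 CPM, than in liver (log2 -1.96 ± 0.34, adjusted p = 9.17e-05). For c1qb and c1qc the differences were -0.22 and -0.14 on the log2 scale, neither called. In RPKM their means were higher in skin than in liver, at 25.4 against 18.7 for c1qb and 19.4 against 13.6 for c1qc.

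For irf8 and ncf1 the skin was not called different from the liver (log2 -2.0 ± 0.86, adjusted p = 0.0517, and -1.14 ± 0.94). Both directions rest on the liver of MC1: without that liver irf8 came to 0.58 and ncf1 to 1.90 higher in skin (adjusted p = 0.00144 for ncf1), while without any other 1 of the livers irf8 was called lower in skin (-2.25 to -2.31). MC1 was singled out after its high values of irf8 and ncf1, the genes tested here, were seen. The adjusted p without it therefore cannot be read as an independent test. With the fish as a replicate block the ncf1 difference was 0.71.

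In aging skin, 5 of the 6 members were higher at 39 weeks than at 5 weeks, at a background of 25.6% of loci called higher, and mrc1b was not. The C1q chain gene c1qb had 50.34, 43.59, 43.34, 65.82 and 93.9 CPM at 39 weeks, against 9.598, 10.34, 12.66, 12.08 and 11.81 CPM at 5 weeks. The lowest old skin lay above the highest young skin by a wide margin (5.26-fold, log2 2.39 ± 0.29, adjusted p = 5.97e-07). Its partner chain c1qc had 7.269, 11.05, 23.77, 13.79 and 32.88 CPM at 39 weeks, against 9.277, 6.681, 5.396, 5.532 and 8.801 CPM at 5 weeks. These groups overlapped through the skin of JM1 (log2 1.31 ± 0.44, adjusted p = 0.0153), and without the skin of JM24 the difference was 0.97 (adjusted p = 0.0647).

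The oxidase subunit gene ncf1 had 24.33, 23.47, 41.95, 43.17 and 40.17 CPM in skin at 39 weeks, against 11.11, 6.765, 12.01, 14.2 and 10.59 CPM at 5 weeks. No old value reached down to a young one (3.16-fold, log2 1.66 ± 0.29, adjusted p = 4.24e-05). The locus named CD68 had 329.7, 536.8, 210.8, 768.8 and 635.5 CPM at 39 weeks, against 134.0, 104.7, 154.9, 173.0 and 184.4 CPM at 5 weeks. These groups were also apart, with the lowest old skin just above the highest young one (3.3-fold, log2 1.72 ± 0.45, adjusted p = 0.00251).

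The transcription factor gene irf8 had 6.728, 8.63, 9.114, 15.77 and 18.63 CPM in skin at 39 weeks, against 4.301, 2.395, 6.745, 3.909 and 6.29 CPM at 5 weeks. Only the lowest old and the highest young skin overlapped (2.49-fold, log2 1.32 ± 0.41, adjusted p = 0.00975). For mrc1b the old skins had 68.65 to 174.5 CPM (median 85.95) and the young skins 82.11 to 132.0 CPM (median 96.59). The groups ran through each other (log2 0.03 ± 0.31, adjusted p = 0.942), and the 95% interval of the difference, -0.57 to 0.64, spans a change of less than 2-fold either way.

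Over all 5 ages 5 of the 6 members were called in skin, again without mrc1b (adjusted p = 0.0889), where 66.5% of all loci were. The c1qb medians ran 11.81, 23.65, 23.09, 20.47 and 50.34 CPM at 5, 12, 20, 27 and 39 weeks, with steps at both ends of the range and little between. For ncf1 the medians were 11.11, 19, 17.92, 20.11 and 40.17 CPM, the same shape, and for irf8 they were 4.301, 4.862, 4.727, 5.193 and 9.114 CPM. CD68 had medians of 154.9, 342.3, 175.0, 321.7 and 536.8 CPM, which did not run in 1 direction. For mrc1b the highest median was at 27 weeks, 184.2 CPM, against 85.95 to 102.5 CPM at the other ages. Single skins decided some of these calls: c1qc was lost without any 1 of JM102, JM103, JM94, JM79, JM87, JM15 or JM24, irf8 without JM18 or JM24 and CD68 without JM18, while mrc1b was gained without any 1 of JM79, JM72, JM74 or JM15.

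Between 12 and 5 weeks, 2 members were called higher in skin: c1qb (log2 1.14 ± 0.28, adjusted p = 0.00443) and ncf1 (0.79 ± 0.28, adjusted p = 0.0353), with 14.6% of loci called higher. The c1qb values at 12 weeks, 22.12 to 28.65 CPM, all lay above those at 5 weeks, while those of ncf1 overlapped. The ncf1 call was lost without any 1 of 6 skins: JM100, JM102, JM95, JM110, JM112 or JM116. CD68 (1.06, adjusted p = 0.0694) was called without JM112, with DESeq2 and in a fit of the 2 groups alone. Between 39 and 12 weeks 3 members were called higher, at 24.3% of loci: c1qb (1.26 ± 0.28, adjusted p = 0.000816), ncf1 (0.87 ± 0.28, adjusted p = 0.0139) and irf8 (1.09 ± 0.41, adjusted p = 0.032). The irf8 call was lost without JM104, JM109, JM110, JM116, JM18 or JM24 (adjusted p at most 0.0923).

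**Figure D2:**
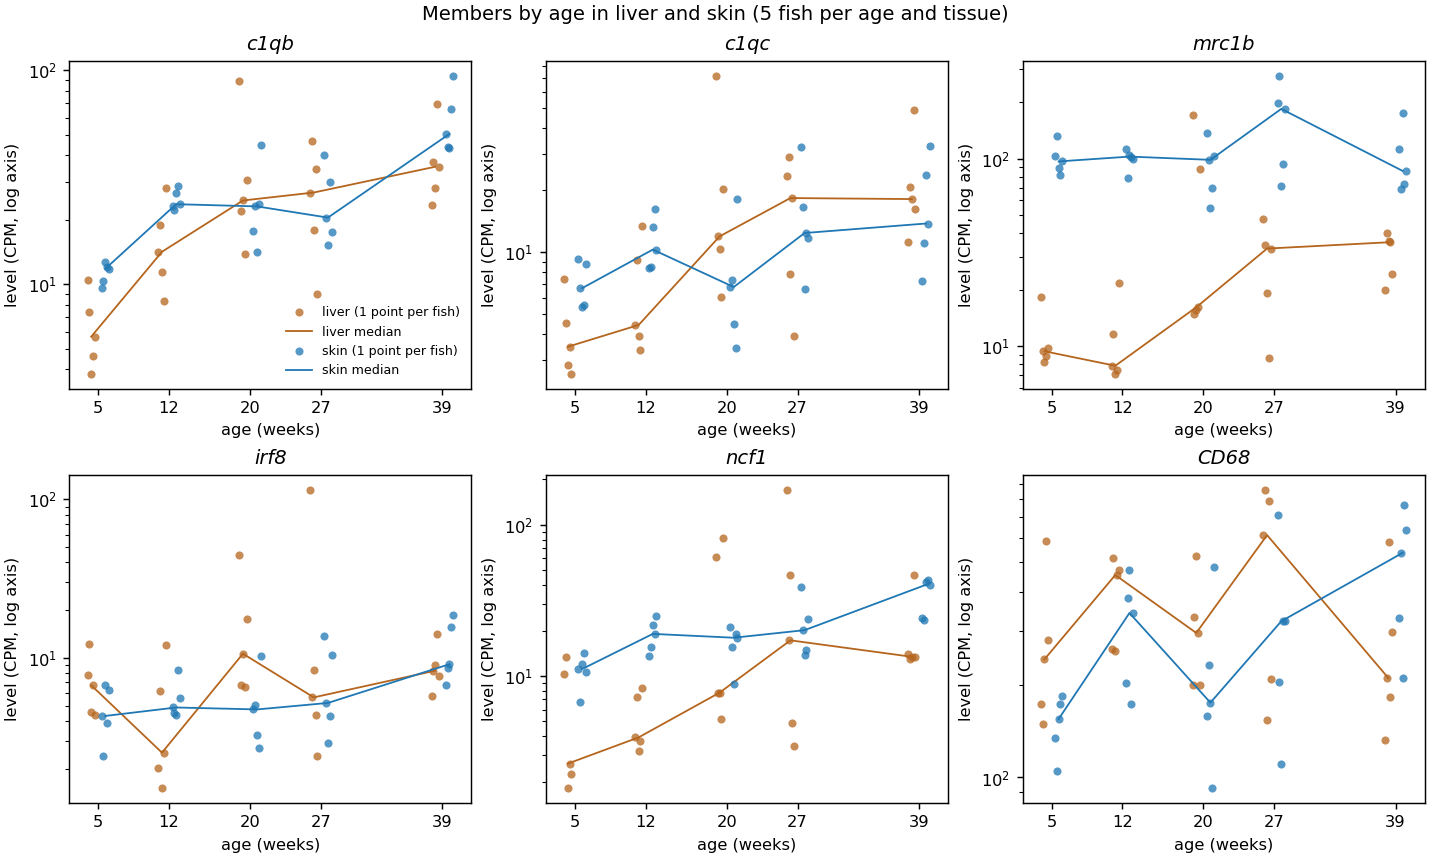
CPM of the 6 members on a log scale in untreated liver and skin against age in weeks; each point is 1 fish and each line joins the medians of 5 fish. In skin c1qb at 39 weeks (43.34 to 93.9 CPM) lies above every value at 5 weeks (9.598 to 12.66 CPM), while the mrc1b values of these ages overlap; in liver single fish of 20 and 27 weeks lie far above the rest for irf8 and ncf1.

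Other phagocyte and leukocyte genes moved in the same skins. Of 29 other macrophage and microglia loci tested, 15 were called higher and 6 lower at 39 weeks than at 5, where 25.6% of all loci were higher and 28.9% lower (median log2 change 0.79, against -0.03 over all loci), with the kinase gene hck at 1.79 ± 0.26 (adjusted p = 5.92e-06). Among the 6 were tmem119b (-5.61 ± 0.52) and tmem119a (-3.20 ± 0.50), whose mammalian relative marks microglia and bone cells. Of 11 loci of the NADPH oxidase and its partners 7 were higher and none lower (median 1.25). Of 9 loci of C1q's partners 3 were higher, among them the A chain gene c1qa (1.65 ± 0.38, adjusted p = 0.000802).

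Of 15 loci shared by all leukocytes 10 were higher in the old skins, as were 9 of 15 neutrophil loci and 5 of 8 T cell loci, against the same 25.6% of all loci. The summed pan-leukocyte level was 467 to 643 CPM at 39 weeks, against 217 to 289 CPM at 5 weeks, and the summed neutrophil level 1270 to 2450 CPM, against 497 to 903 CPM. The part of these cell types in the members' differences was not tested.

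In aging liver, both C1q chain genes were higher at 39 weeks than at 5 weeks and the other 4 members were not called, at a background of 5.22% of loci called higher. c1qb had 23.37, 37.33, 28.04, 69.66 and 35.37 CPM at 39 weeks, against 10.49, 7.418, 3.818, 4.64 and 5.684 CPM at 5 weeks (6.03-fold, log2 2.59 ± 0.50, adjusted p = 0.00163). c1qc had 11.2, 20.78, 18.13, 49.24 and 16.19 CPM, against 7.392, 4.533, 2.818, 3.471 and 2.565 CPM (5.55-fold, log2 2.47 ± 0.64, adjusted p = 0.0141). For both genes every old liver lay above every young one, with the liver of JM15 highest. That liver also had summed muscle genes of 2390 CPM, against 29.8 to 123 CPM in the other livers of 39 weeks and 33.9 to 93.1 CPM in those of 5 weeks. Without it both were still called, c1qb at 2.29 (adjusted p = 0.00591) and c1qc at 2.01 (adjusted p = 0.0491). Summed hepatocyte genes came to 33800 to 278000 CPM at 39 weeks, with JM15 at 53300 CPM, and to 63300 to 325000 CPM at 5 weeks. The part of this in the differences of c1qb and c1qc was not tested.

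The mannose receptor gene was also apart between these groups without being called. mrc1b had 19.88, 40.12, 36.29, 35.77 and 24.32 CPM in liver at 39 weeks, against 18.27, 9.376, 8.181, 8.878 and 9.751 CPM at 5 weeks (log2 1.52 ± 0.58, adjusted p = 0.0892). The call came with DESeq2 (1.5, adjusted p = 0.0472), in a fit of the 2 groups alone (1.51, adjusted p = 0.0128) and without the livers of JM61, JM75 and JM85 (1.51, adjusted p = 0.00898). The livers of JM61, JM75 and JM85 belong to neither age and were left out after their values were seen. The call without them is therefore not an independent test. Of all loci, 4.8% had groups apart and higher at 39 weeks.

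For ncf1 the livers at 39 weeks had 14.06, 12.94, 13.36, 46.69 and 13.4 CPM and those at 5 weeks 10.36, 13.26, 1.818, 2.63 and 2.241 CPM (log2 1.73 ± 0.91, adjusted p = 0.223). The 5-week livers of JM100 and JM101 lay close to the old livers and the other 3 well below. For irf8 the difference was 0.33 ± 0.82, with 5.751 to 14.24 CPM at 39 weeks and 4.39 to 12.23 CPM at 5 weeks. CD68 had 132.8 to 582.1 CPM at 39 weeks and 149.6 to 585.8 CPM at 5 weeks, a difference of -0.03 on the log2 scale (adjusted p = 0.979).

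Over all 5 ages 3 members were called in liver, c1qb (adjusted p = 0.0079), mrc1b (adjusted p = 0.0176) and c1qc (adjusted p = 0.0263), with 12.9% of loci called. The c1qc call was lost without any 1 of 4 livers of 5 weeks, JM101, JM103, JM97 or JM98 (adjusted p at most 0.0708), and ncf1 (adjusted p = 0.0526) was gained without JM79, JM84, JM74 or JM83. DESeq2 called ncf1 and irf8 as well, among 4818 loci in all, against 2277 loci with edgeR. The c1qb medians were 5.684, 14.18, 24.61, 26.81 and 35.37 CPM from 5 to 39 weeks, each above the one before, and the mrc1b medians 9.376, 7.846, 16.1, 33.11 and 35.77 CPM. Single livers stood high in between: JM75 at 20 weeks had 89.12 CPM of c1qb and 171.3 CPM of mrc1b, JM85 at 20 weeks 82.34 CPM of ncf1, and JM61 at 27 weeks 114.5 CPM of irf8 and 170.2 CPM of ncf1. CD68 was not high in JM75 or JM85, at 199.3 and 199.9 CPM, against 294.8 to 525.0 CPM in the other livers of 20 weeks.

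Between 12 and 5 weeks edgeR called 0 members in liver, where 13.5% of loci were called. 1 member had an unadjusted p under 0.05, c1qb (log2 1.34 ± 0.48, adjusted p = 0.066), and DESeq2 called it (1.33, adjusted p = 0.035). Between 39 and 12 weeks edgeR called 0 members and 0% of loci, with 4 members at an unadjusted p under 0.05 and none called by DESeq2. The differences were 1.26 for c1qb, 1.75 for c1qc, 1.49 for mrc1b and 1.92 for ncf1 on the log2 scale, with adjusted p from 0.193 to 0.286. Only for ncf1 were these groups apart, at 12.94 CPM and above at 39 weeks and 8.272 CPM and below at 12 weeks (1.67% of loci were apart in that direction). The 3 contrasts of ages share their groups and are not independent.

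The lists around the members showed few calls in liver between 39 and 5 weeks, where 5.22% of all loci were called higher. Of 27 other macrophage and microglia loci 1 was called higher and none lower (median log2 change 0.78, against 0.07 over all loci), and c1qa was at 2.08 ± 0.61 (adjusted p = 0.0282). Of 15 loci of lectin and scavenger receptors 3 were higher, stab2 (2.89), mrc1a (1.63) and colec12 (0.91), which in fish and mammals are found on sinusoidal or other scavenger endothelium as well as on phagocytes. None of 8 oxidase loci and none of 15 pan-leukocyte loci was called, and the summed pan-leukocyte level was 243 to 533 CPM at 39 weeks and 394 to 586 CPM at 5 weeks.

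Tested against each other, skin and liver differed in the change from 5 to 39 weeks for 20.7% of loci and for 0 members with edgeR (2 members at an unadjusted p under 0.05, and 1 called by DESeq2). The largest differences, as the change in skin minus that in liver, were 1.78 ± 0.68 for CD68 (adjusted p = 0.0568) and -1.44 ± 0.67 for mrc1b (adjusted p = 0.121). DESeq2 gave 1.75 for CD68 (adjusted p = 0.0409), and edgeR called it without the liver of JM100, JM101 or JM13 or the skin of JM15. For c1qb the difference was -0.16, so that the tissues' changes lay close together on the log2 scale.

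In brain, 4 of the 6 members were higher in DMSO fish of 27 weeks than in DMSO fish of 9 weeks, where 1.2% of loci were called higher. c1qc had 5.699, 10.35, 6.231, 6.363 and 10.97 CPM at 27 weeks, against 3.322, 2.926, 2.193, 2.492 and 1.604 CPM at 9 weeks (3.15-fold, log2 1.66 ± 0.24, adjusted p = 0.00666). mrc1b had 17.94, 24.64, 16.7, 16.62 and 29.05 CPM, against 9.423, 9.934, 11.8, 13.49 and 10.94 CPM (1.89-fold, log2 0.92 ± 0.17, adjusted p = 0.0159). The groups of both genes were apart.

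irf8 had 7.848, 6.487, 3.863, 4.0 and 16.92 CPM in brain at 27 weeks, against 2.813, 3.368, 2.432, 1.859 and 2.015 CPM at 9 weeks (3.12-fold, log2 1.64 ± 0.38, adjusted p = 0.0417). ncf1 had 10.42, 7.602, 2.534, 2.073 and 23.27 CPM, against 0.5423, 1.701, 2.193, 0.5537 and 0.3701 CPM (8.51-fold, log2 3.09 ± 0.74, adjusted p = 0.0442). For irf8 the groups were apart and for ncf1 they touched, and in both the brain of MC9 was highest. Groups apart and higher at 27 weeks were found for 1.96% of loci.

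These brain calls lay near the threshold. Without MC9 the difference was 1.15 for irf8 (adjusted p = 0.0915) and 2.39 for ncf1 (adjusted p = 0.117), and both were also lost without MC1, MC2, MC4, MC5 or MC6, irf8 in addition without MC3, while mrc1b was lost without MC5 (adjusted p = 0.0523). A fit of the 2 groups alone called none of the 4, with adjusted p from 0.0573 to 0.136 and the same directions. c1qb had 9.437, 17.95, 7.352, 6.873 and 8.912 CPM at 27 weeks, against 2.678, 8.403, 6.418, 4.469 and 2.015 CPM at 9 weeks (1.07 ± 0.36, adjusted p = 0.128), and DESeq2 called it (adjusted p = 0.0479). CD68 had 47.09 to 113.2 CPM at 27 weeks and 23.07 to 75.59 CPM at 9 weeks (0.47 ± 0.34, adjusted p = 0.54).

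Of 26 other macrophage and microglia loci in brain 5 were called higher and none lower at 27 weeks (median log2 change 0.94, against 0.03 over all loci), among them apoeb (0.93 ± 0.16, adjusted p = 0.0113), which microglia of zebrafish express. Of 16 myeloid transcription factor loci 2 were higher, cebpb (1.55) and a locus of spi1 (1.35, adjusted p = 0.0489), the factor known as PU.1. Of pan-leukocyte loci 3 of 15 were higher and of neutrophil loci 2 of 15. The summed neutrophil level was 108 to 334 CPM at 27 weeks, with MC10 at 334 and MC9 at 258 CPM, against 83.5 to 125 CPM at 9 weeks, and the summed pan-leukocyte level 140 to 322 CPM, against 177 to 194 CPM. Their part in the ncf1 and irf8 differences was not tested.

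In skin of the same fish, 2 members were higher at 27 than at 9 weeks in DMSO, at 3.71% of loci called higher. irf8 had 12.37, 13.73, 15.99, 20.09 and 24.47 CPM at 27 weeks, against 9.369, 5.148, 5.683, 8.119 and 5.427 CPM at 9 weeks, with the groups apart (2.57-fold, log2 1.36 ± 0.26, adjusted p = 0.00858). CD68 had 221.6, 128.6, 283.8, 316.2 and 338.2 CPM, against 166.6, 170.1, 112.1, 177.4 and 111.9 CPM, with only MC6 of the older fish inside the younger range (1.75-fold, log2 0.80 ± 0.23, adjusted p = 0.0404). The CD68 call was lost without any 1 of MC2, MC3, MC4, MC5, MC7, MC8 or MC9 (adjusted p from 0.0562 to 0.112). The differences of c1qb (0.61), c1qc (0.64) and ncf1 (0.86) were not called, and that of mrc1b was -0.15.

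In liver of these fish edgeR called 0 members at 27 against 9 weeks in DMSO, with 12.4% of loci called and 1 member at an unadjusted p under 0.05. DESeq2 called none of the members and gave no adjusted p for 2 of them. mrc1b stood at 1.07 (adjusted p = 0.154), c1qb at 0.64 and c1qc at 0.93 on the log2 scale. For irf8 and ncf1 1 fish in each group was far above the others: MC9 of 27 weeks had 80.91 CPM of irf8 and 97.84 CPM of ncf1, and MC1 of 9 weeks 68.01 and 93.45 CPM. The other livers had 5.543 to 8.218 CPM of irf8 at 27 weeks and 0.9583 to 3.957 CPM at 9 weeks. Without both fish irf8 was 1.38 higher (adjusted p = 0.0248) and ncf1 1.32 higher (adjusted p = 0.0279) at 27 weeks. Both fish were left out after their high values of irf8 and ncf1, the genes tested here, were seen. These adjusted p therefore cannot be read as independent tests.

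**Figure D3:**
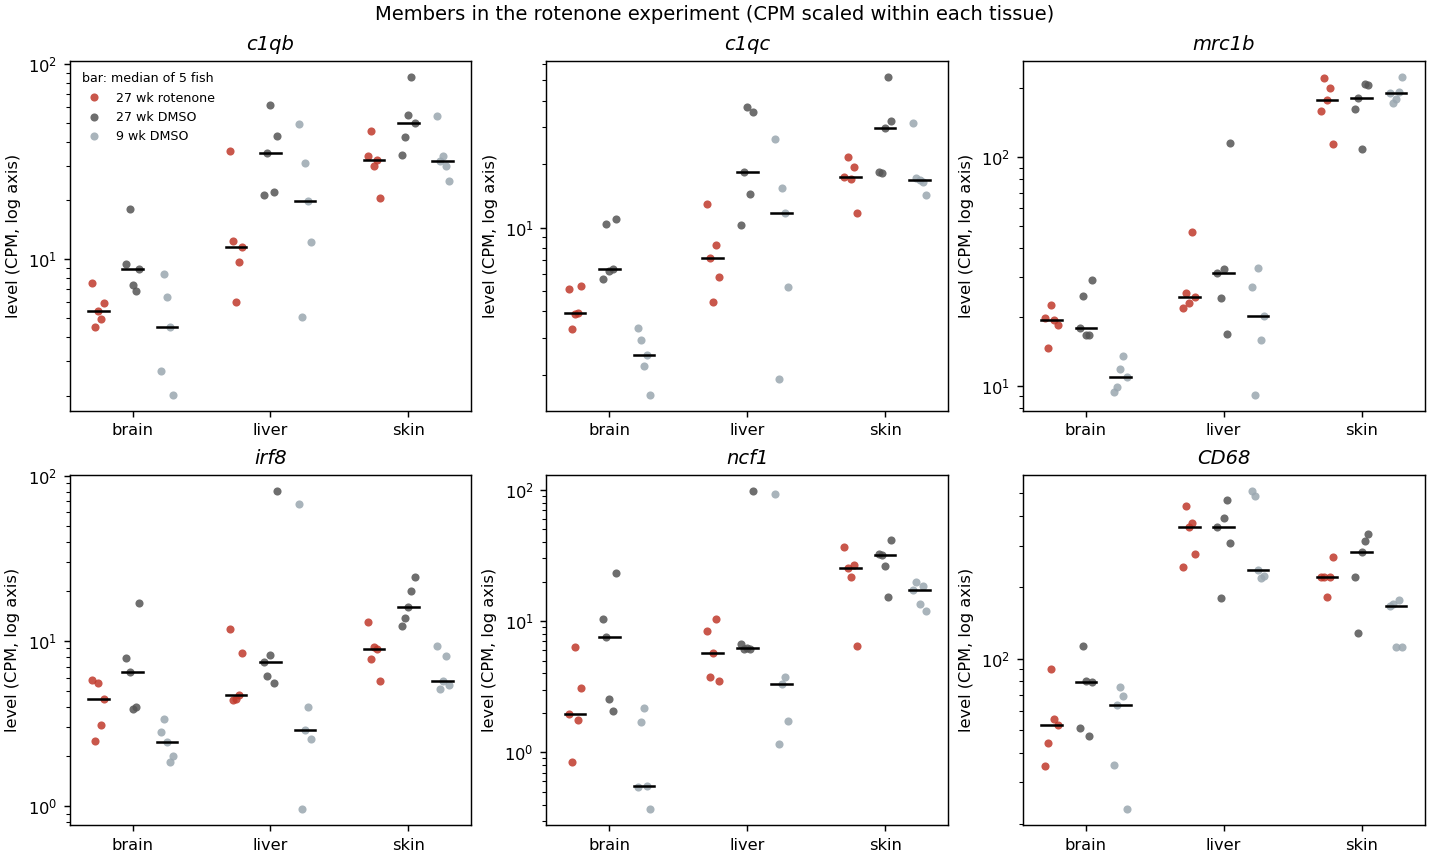
CPM of the 6 members in brain, liver and skin of 27-week fish in rotenone, 27-week fish in DMSO and 9-week fish in DMSO; each point is 1 fish and each bar the median of 5, on a log scale. In brain c1qc lies at 3.316 to 5.298 CPM in rotenone, against 5.699 to 10.97 CPM in DMSO at 27 weeks, and in liver MC1 and MC9 stand far above the others for irf8 and ncf1.

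Rotenone was compared with DMSO at 27 weeks, with the same 5 DMSO fish that entered the comparison of ages. In brain 1 member was called lower, at a background of 5.43% of loci called lower. c1qc had 5.127, 3.316, 3.868, 3.92 and 5.298 CPM in rotenone, against 5.699, 10.35, 6.231, 6.363 and 10.97 CPM in DMSO (log2 -0.88 ± 0.23, adjusted p = 0.0316). The groups were apart, narrowly, as they were for 2.49% of loci in that direction. The call was lost without MC6, MC9, MR27, MR28 or MR29 (adjusted p from 0.0706 to 0.0918), and in a fit of the 2 groups alone (adjusted p = 0.06).

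For c1qb the brains had 7.575, 4.473, 5.394, 4.963 and 5.986 CPM in rotenone, against 9.437, 17.95, 7.352, 6.873 and 8.912 CPM in DMSO (log2 -0.83, adjusted p = 0.16). Only MR26 reached into the DMSO range. irf8 stood at -0.87 (adjusted p = 0.163), ncf1 at -1.71 ± 0.69 (adjusted p = 0.135), CD68 at -0.42 and mrc1b at -0.15, the last with 14.7 to 22.49 CPM in rotenone and 16.62 to 29.05 CPM in DMSO.

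In liver c1qc was also the 1 member called lower in rotenone, where 12.0% of loci were. It had 12.98, 7.173, 4.421, 8.286 and 5.843 CPM in rotenone, against 10.25, 18.44, 37.53, 14.44 and 35.29 CPM in DMSO (log2 -1.59 ± 0.56, adjusted p = 0.0496). MR26 in rotenone lay above MC10 in DMSO, and the other 4 treated livers lay below all DMSO livers. MC7, the highest, had summed hepatocyte genes of 62100 CPM. The other DMSO livers had 106000 to 293000 CPM and the rotenone livers 115000 to 228000 CPM. The part of this in the c1qc difference was not tested. The call was lost on leaving out any 1 of MC6, MC7, MC8, MC9, MR27, MR28, MR29 or MR30 (adjusted p from 0.0581 to 0.108).

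c1qb had 35.98, 12.35, 6.026, 9.694 and 11.59 CPM in these rotenone livers, against 21.41, 34.77, 61.64, 22.08 and 42.83 CPM in DMSO (log2 -1.28 ± 0.56, adjusted p = 0.104). Without MR26, the treated liver inside the DMSO range, the difference was -1.88 (adjusted p = 0.0229). MR26 was singled out after its value of c1qb, the gene tested here, was seen. That adjusted p therefore cannot be read as an independent test. The values of irf8 (-1.68 ± 1.08) and ncf1 (-1.95 ± 1.19) rest on the DMSO liver of MC9, without which ncf1 had a difference of 0.0 and mrc1b one of 0.12, against -0.63 with it. CD68 was at -0.01, with 244.7 to 442.5 CPM in rotenone and 180.9 to 470.0 CPM in DMSO.

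In skin irf8 was the 1 member called lower in rotenone, at 5.19% of loci called lower. It had 13.01, 7.755, 9.251, 8.979 and 5.702 CPM in rotenone, against 12.37, 13.73, 15.99, 20.09 and 24.47 CPM in DMSO, with MR26 alone inside the DMSO range (log2 -0.96 ± 0.25, adjusted p = 0.0243). The call was lost without MC8, MC9, MR27 or MR29 (adjusted p from 0.0514 to 0.0764). Germ cell genes summed to 1800 CPM in the treated skin of MR30 and to 930 CPM in the DMSO skin of MC7, against 3.61 to 17.2 CPM in the other skins of 27 weeks, and keratinocyte genes to 14600 CPM in MR30, against 30500 to 52500 CPM in the others. Without both skins irf8 was still called lower (-0.86, adjusted p = 0.0337). c1qb (-0.72, adjusted p = 0.0925) and c1qc (-0.79, adjusted p = 0.0932) were not called. For mrc1b the difference was 0.01 with a 95% interval of -0.37 to 0.4, and for CD68 it was -0.21.

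Set against each other, the tissues' rotenone changes were not called different for any member by edgeR, and no member had an unadjusted p under 0.05. The background was 9.76% of loci for brain minus liver, 0.333% for brain minus skin and 3.22% for skin minus liver, and DESeq2 called none of the members it gave an adjusted p. For c1qc the differences were 0.70, -0.05 and 0.75 on the log2 scale, and for irf8 they were 0.72, 0.13 and 0.60. The SEs for irf8, 0.97 to 0.98, leave room for large differences between tissues. They come from 1 fit of all 45 libraries of the arm, whose shared spread includes the livers of MC1 and MC9. In the fits of single tissues the SE of the irf8 rotenone change was 0.37 in brain, 0.25 in skin and 1.08 in liver.

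Of the wider lists, none of 26 macrophage and microglia loci was called in rotenone brains (median -0.44, against -0.03 over all loci), where 5.43% of all loci were lower. In liver 4 of 26 were lower and 2 higher (median -1.36, against -0.08), 4 of 17 lectin and scavenger receptor loci were lower and 1 higher, and 4 of 11 endothelial loci were lower, where 12.0% of all loci were lower and 13.9% higher. In skin, where 5.19% of all loci were lower, 3 of 29 macrophage and microglia loci were lower and none higher. The 3 were hck (-0.79), P2RY13 (-1.31) and P2RY12 (-0.93), the last 2 being purinergic receptor genes that mark microglia in mammals. The summed level of the macrophage and microglia list in skin was 846 to 1670 CPM in rotenone, 1310 to 2620 CPM in DMSO at 27 weeks and 896 to 1220 CPM in DMSO at 9 weeks.

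**Figure D4:**
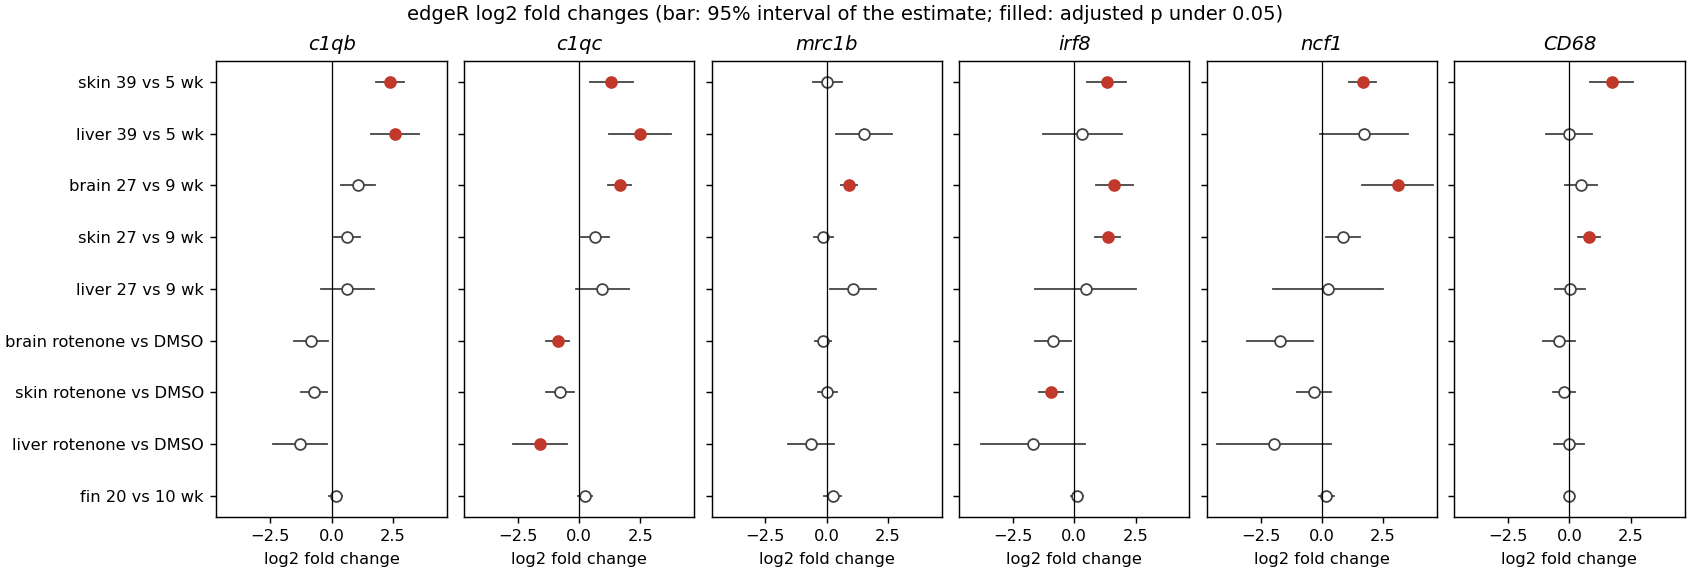
Log2 fold changes of the 6 members by edgeR with 95% intervals as bars, for 39 against 5 weeks in skin and liver, 27 against 9 weeks in DMSO, rotenone against DMSO at 27 weeks and 20 against 10 weeks in fin; filled points have an adjusted p under 0.05. c1qb is called in both aging tissues (2.39 in skin and 2.59 in liver), and no member is called in fin.

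In fin, edgeR called 0 members between the clips at 20 and 10 weeks of the same 45 fish, with 24.3% of loci called in either direction, no member at an unadjusted p under 0.05 and none called by DESeq2. At 20 weeks c1qb had a lowest, median and highest value of 0.6841, 15.49 and 42.72 CPM, against 2.862, 13.14 and 23.28 CPM at 10 weeks (log2 0.16 ± 0.14, adjusted p = 0.448). mrc1b had 3.999, 162.0 and 386.9 CPM at 20 weeks, against 12.27, 145.3 and 230.5 CPM at 10 weeks (0.25 ± 0.18, adjusted p = 0.336). The ranges overlap almost wholly, and their low ends belong to the few clips named above.

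c1qc had 0.4819, 9.576 and 25.45 CPM at 20 weeks, against 1.304, 7.986 and 15.06 CPM at 10 weeks (0.25 ± 0.15, adjusted p = 0.242). The value was higher at 20 weeks in 30 of 45 fish for c1qb, 31 for c1qc, 35 for mrc1b, 24 for irf8, 26 for ncf1 and 25 for CD68. For CD68 the difference was 0.00 ± 0.08, with a 95% interval of -0.16 to 0.16. irf8 and ncf1 stood at 0.11 ± 0.12 and 0.17 ± 0.15.

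The clips of LS45 and LS42 at 20 weeks, both of group1, had 3.999 and 8.232 CPM of mrc1b, and those of LS23 (group3) and LS10 (group1) at 10 weeks 12.27 and 28.84 CPM. The next lowest of the 90 clips had 85.29 CPM and the median was 152.2 CPM. They were also the lowest 4 clips for c1qb, with 0.6841, 2.088, 2.862 and 6.507 CPM, and for c1qc, with 0.5262, 0.4819, 1.304 and 2.444 CPM in the same order of fish. For ncf1 the lowest 3 were LS45, LS42 and LS23 with 1.315, 1.847 and 3.259 CPM, while LS10 at 8.291 CPM lay within the range of the rest. The same 4 clips had summed keratinocyte levels of 222000, 170000, 262000 and 255000 CPM, against a median of 156500 CPM, summed pan-leukocyte levels of 219, 221, 303 and 332 CPM, against a median of 386 CPM, summed endothelial levels of 183, 178, 244 and 120 CPM, against a median of 123 CPM, and CD68 levels of 379.4, 179.7, 645.6 and 277.4 CPM, within the range of the other clips except for the highest of them. The summed levels of the other macrophage and microglia genes, 4620, 2420, 3660 and 2940 CPM, were not the lowest, which was 2190 CPM. The part of these levels in the members' low values was not tested. Without these 4 fish, 3 members were called higher at 20 weeks: c1qb (0.19 ± 0.07, adjusted p = 0.0352), c1qc (0.27 ± 0.07, adjusted p = 0.00372) and mrc1b (0.27 ± 0.06, adjusted p = 0.000334), with 27.8% of 18851 loci called. They were higher in 28, 29 and 33 of 41 fish. The 4 fish were left out for low values of mrc1b, a gene tested here, and were also lowest for c1qb and c1qc. These adjusted p therefore cannot be read as independent tests.

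The libraries came in 2 batches named in the labels, and the fitted differences did not have the same sign in both. In batch 1 alone, 30 fish, c1qc (0.43, adjusted p = 0.0177) and mrc1b (0.42, adjusted p = 0.0497) were called higher. With the fish of both batches 24.3% of loci were called in either direction. The share in batch 1 alone is not given here, so these calls are not read as particular to the members. In batch 2 alone, 15 fish that include LS42 and LS45, the differences were -0.19 for c1qb, -0.18 for c1qc, -0.14 for mrc1b and -0.39 for ncf1. Counted by fish, mrc1b was higher at 20 weeks in 23 of 30 fish of batch 1 and in 12 of 15 of batch 2, and ncf1 in 21 of 30 and 5 of 15. c1qb and c1qc were each higher in 8 of 15 fish of batch 2, and, without LS42 and LS45, c1qb, c1qc and mrc1b were higher in 8, 8 and 12 of 13.

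**Figure D5:**
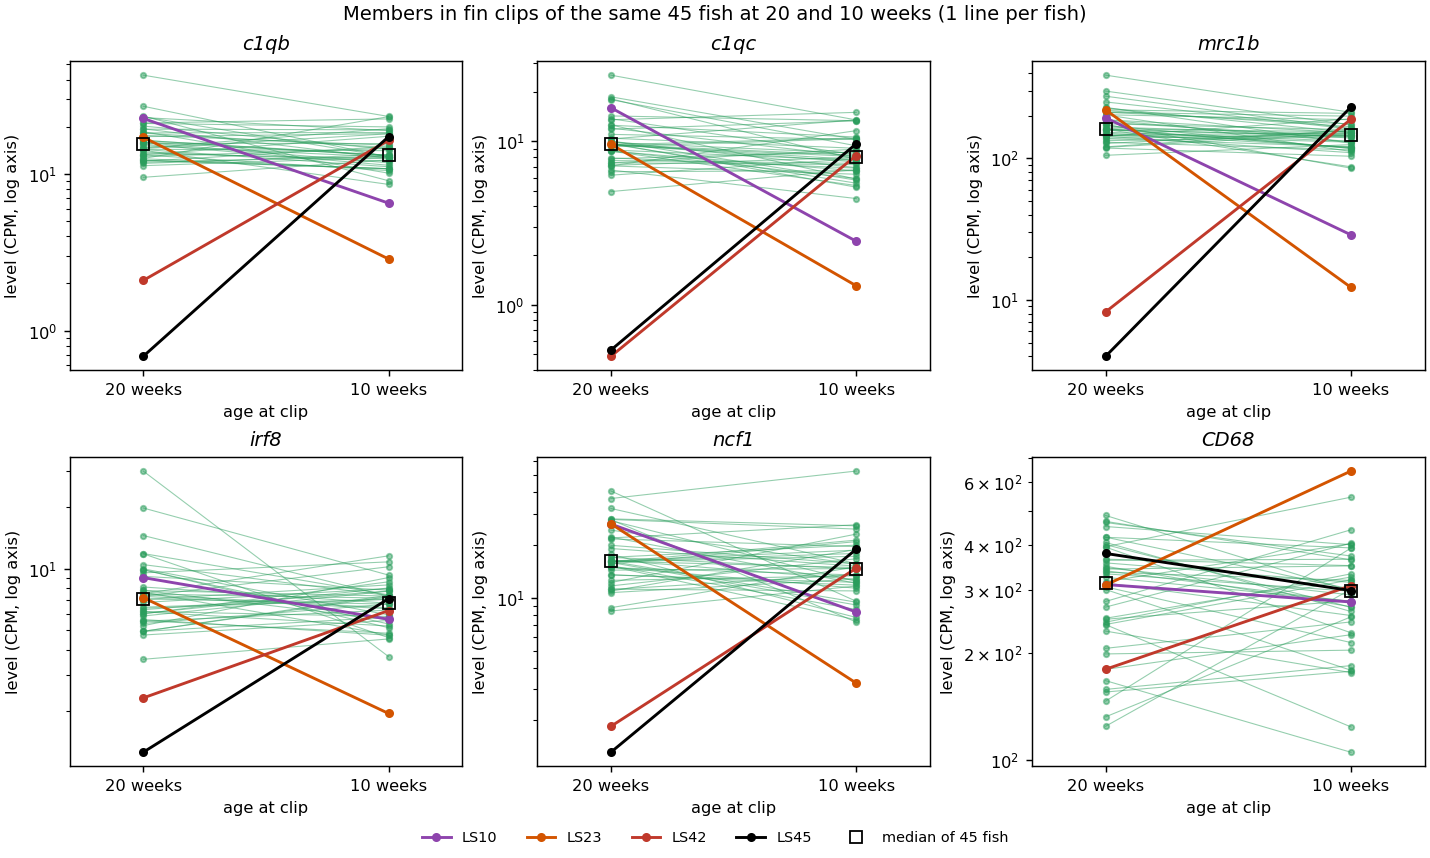
CPM of the 6 members on a log scale in fin clips at 20 weeks (left) and 10 weeks (right); each line is 1 fish, the fish LS10, LS23, LS42 and LS45 are coloured, and squares are the medians of 45 fish. The coloured fish fall far below the others in 1 clip each for mrc1b (3.999 to 28.84 CPM), while the medians of all members differ little between the clips.

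Within the lifespan groups edgeR again called 0 members between clips, at 2.70% of loci in group3, 5.87% in group2 and 6.63% in group1. In group3 1 member had an unadjusted p under 0.05, ncf1 (0.54, adjusted p = 0.339), and in group2 and group1 none had, and DESeq2 called none in any group. The changes of c1qb were 0.44 in group3, 0.12 in group2 and -0.10 in group1, and those of mrc1b 0.39, 0.34 and 0.00. Without the 4 fish mrc1b was called in group2 (0.33, adjusted p = 0.026), and the changes were 0.30 for c1qb and 0.20 for mrc1b in group3 and 0.16 and 0.28 in group1. The 4 fish were left out for low values of mrc1b, the gene tested here, and none of them belongs to group2. That adjusted p therefore cannot be read as an independent test. The share of loci called in group2 without them is not given here. In batch 2 alone, which holds LS42 and LS45, the group1 changes were -1.13 for c1qb and -1.40 for mrc1b, and in batch 1 alone 0.27 and 0.42. The change in group3 minus that in group1 was 0.53 for c1qb and 0.63 for ncf1 and was called for 0 members and 0% of loci (320 loci and no member at an unadjusted p under 0.05, none called by DESeq2). For c1qb that difference was 0.14 without the 4 fish, 0.21 in batch 1 and 1.44 in batch 2.

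Longer-lived fish were then compared with shorter-lived ones at each age, with batch in the fit. At 10 weeks edgeR called 0 members and 0% of loci between group3 and group1, and likewise between group2 and group1. At 20 weeks it again called 0 members and 0% of loci in either comparison, group3 or group2 against group1. DESeq2 also called no locus in any of the 4. The 1 member at an unadjusted p under 0.05 was c1qb at 10 weeks, with a lowest, median and highest value of 2.862, 12.51 and 19.45 CPM in group3, against 6.507, 17.29 and 23.28 CPM in group1 (log2 -0.40 ± 0.16, unadjusted p = 0.0158, adjusted p = 0.889). At 20 weeks the same difference was -0.05. Across the members the differences lay between -0.40 and 0.12 at 10 weeks and between -0.33 and 0.22 at 20 weeks.

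How the members vary together was described by Pearson correlations of log2 CPM over the 185 libraries after each group's mean was taken away. The libraries share tissues and depth, so the values carry no p. The C1q chains went together (r = 0.888), and the locus most like each of them was the third chain, c1qa (r = 0.890 with c1qb and 0.913 with c1qc). Within tissues the correlation of c1qb and c1qc was 0.944 in liver, 0.746 in skin, 0.494 in brain and 0.917 in fin. irf8 and ncf1 also went together (r = 0.803), and mrc1b was nearest to c1qc (r = 0.751).

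The loci most like irf8 were slc2a6 (r = 0.896), NCKAP1L (0.890) and a locus of spi1 (0.890), and those most like mrc1b were another locus of spi1 (0.870), CABZ01036814.1 (0.856) and ccr12.3 (0.829). ncf1 was most like pls3 (0.912), cd247l (0.902) and ptpn11b (0.899), and its correlation with the mean of the oxidase list was 0.927. Over all libraries together CD68 stood apart, with r from -0.092 to 0.186 with the other members and with ccdc80 (0.790) as its most similar locus. Whether the symbol CD68 is right for this locus could not be checked here. With the mean of the list of other macrophage and microglia genes the members had r = 0.859 for irf8, 0.815 for ncf1, 0.724 for c1qc, 0.672 for c1qb, 0.580 for mrc1b and 0.284 for CD68. The measure does not single out macrophages, since the members also varied with lists of other leukocytes. With the mean of the neutrophil list r was 0.823 for ncf1, 0.669 for c1qb and 0.597 for mrc1b, and with that of the pan-leukocyte list it was 0.906 for ncf1. Within skin CD68 had r = 0.635 with irf8 and 0.561 with c1qb, against 0.131 and -0.032 within fin. Within the 15 brains it had r = 0.648 with c1qb, 0.553 with ncf1 and 0.506 with mrc1b, but 0.344 with c1qc and 0.174 with irf8.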

How the data were processed

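RNA sequencing libraries of total RNA were made with a TruSeq RNA kit, per the labels' protocols, from about 2.5 µg of RNA per tissue and 1 µg per fin clip. Counts per gene and RPKM values were deposited separately, each for every library. Per the submitters' processing notes, CASAVA 1.8.0 and 1.8.2, bcl2fastq 1.8.4, TopHat2 2.0.6 and featureCounts 1.4.3-p1 were used; the sources used here do not name the genome build, the annotation or the strand setting of the counting. RPKM values were used as the authors deposited them, for levels per length only, and are not corrected for composition.

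Counts as deposited were tested with edgeR 4.0.16 in R 4.3.3 (TMM factors, filterByExpr, robust quasi-likelihood), with Benjamini-Hochberg adjustment over all loci tested. A fit covered all groups of a tissue and arm, so groups share 1 estimate of spread. Comparisons between tissues instead used 1 fit over the tissues compared, in the main setting without pairing by fish. Lifespan contrasts used the clips of 1 age. Fin clips were fitted with the fish as block, since the labels give the same animal for both (the members' deviations in the 2 clips of a fish had r from -0.161 to 0.410), and lifespan contrasts with the batch as a term. CPM are per fit and use its TMM factors, so CPM of 1 library differ between fits. The differences are large between the fit across tissues and the fits of 1 tissue, whose CPM cannot be compared. Intervals are 95%, from the SE and a normal quantile. The p-values measure the spread between these fish and clips only.

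Alternatives were DESeq2 1.42.0, RLE factors, no low-count filter, only the groups compared, fish as replicate block or none, single batches, leaving out each library, and leaving out libraries that stood apart. The tests were tried on simulated data. The 6 members, the surrounding gene lists and the libraries left out were chosen with earlier results of these data known. Genes of the lists are named when called, at most the 3 with the smallest p per list and comparison, and some lists share genes (c1qa and rac2). Likeness used log2 CPM with a prior count of 2, over loci with a symbol and a mean of at least 1. For correlations with a list, these log2 values were averaged over its loci after group means were taken away. Figures were drawn with matplotlib 3.10.9.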

Additional observations from a re-analysis of the deposited data

Results flagged for a closer look

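In each group of 5 fish, the highest and the lowest CPM of each member were compared with the nearest other value by Dixon's ratio (critical value 0.71). Of 114 sets of values, each 1 member in 1 group, 18 had a fish past it, and all 18 were the highest fish. The critical value flags about 1 in 20 sets of normal values. It was applied to CPM off the log scale, whose shape was not tested, so the rate by chance is not known here. The sets are not independent, since 1 fish gives all members.

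In untreated livers the fish JM75 at 20 weeks had 89.12 CPM of c1qb, 71.94 CPM of c1qc and 44.8 CPM of irf8, against at most 30.75, 20.3 and 17.54 CPM in the other 4. JM61 at 27 weeks had 114.5 CPM of irf8 and 170.2 CPM of ncf1, against at most 8.373 and 46.8 CPM. JM15 at 39 weeks had 49.24 CPM of c1qc and 46.69 CPM of ncf1, against at most 20.78 and 14.06 CPM. JM100 at 5 weeks had 18.27 CPM of mrc1b, against at most 9.751 CPM.

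In livers of the rotenone arm MC1 (DMSO, 9 weeks) had 68.01 CPM of irf8 and 93.45 CPM of ncf1, against at most 3.957 and 3.731 CPM in its group. MC9 (DMSO, 27 weeks) had 115.3 CPM of mrc1b, 80.91 CPM of irf8 and 97.84 CPM of ncf1, against at most 32.6, 8.218 and 6.661 CPM. In rotenone livers MR26 had 35.98 CPM of c1qb, against at most 12.35 CPM, and MR29 had 47.33 CPM of mrc1b, against at most 25.43 CPM.

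The remaining flags were single values: 18.13 CPM of c1qc in the skin of JM91 at 20 weeks, against at most 7.292 CPM, 31.29 CPM of c1qc in the skin of MC1, against at most 17.22 CPM, and 17.95 CPM of c1qb in the brain of MC6, against at most 9.437 CPM. The pan-leukocyte sums of the livers of JM75, JM85, JM61, MC1 and MC9 were 834, 804, 1100, 911 and 1040 CPM. The other livers had 243 to 1030 CPM in the aging arm, with JM107 of 12 weeks highest, and 239 to 473 CPM in the rotenone arm. The part of these sums in the flagged values was not tested.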

How the results depend on the processing

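Over the members, comparisons and settings other than leaving out each library in turn, 939 values kept their call and direction (a change of sign within 1 SE of 0 is not counted), 24 gained a call, 12 lost one and 8 reversed. These settings include those without the liver of JM103, the skin of JM109 or the brain of MC10. On leaving out each library in turn the numbers were 1589, 20, 65 and 6. With DESeq2 5 members were called over all ages in liver (4818 loci in all), 1 between 12 and 5 weeks in liver (3421 loci) and 1 in the difference between skin and liver (4777 loci). edgeR called 2277, 2383 and 4118 loci in these comparisons. Fitting only the groups compared called 1 member in liver and 4 in skin between 12 and 5 weeks, 0 in brain at 27 against 9 weeks (7 loci in all), and 0 in brain and 0 in skin for rotenone against DMSO. Where no number of all loci called is given for a setting, the count of members is not read as particular to them. Without the livers of JM61, JM75 and JM85 1 member was called in liver at 12 against 5 weeks, and without those of MC1 and MC9 2 at 27 against 9 weeks and 0 for rotenone, where mrc1b came to 0.13 and ncf1 to 0.02 on the log2 scale. For rotenone in liver 0 were also called without the filter on low counts and without the livers of MC7 and MC8. In fin 3 members were called between clips without LS10, LS23, LS42 and LS45 (1 in group2) and 2 in batch 1 alone. The livers and fish left out for standing apart were chosen after their values were seen, so calls made without them are not independent tests. In batch 2 alone the clip difference was -0.19 for c1qb, -0.18 for c1qc, -0.14 for mrc1b and -0.39 for ncf1, and group2 against group1 at 20 weeks was 0.10 for c1qc. With the fish as a replicate block, paired by animal, ncf1 in skin against liver came to 0.71 (adjusted p = 0.555); beside that and the irf8 call between brain and skin, blocking changed no other call or direction.

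Leaving out 1 library at a time, members called ran from 3 to 6 over all ages in skin, 1 to 2 in skin at 12 against 5 weeks, 1 to 4 in brain and 1 to 2 in skin at 27 against 9 weeks, and 0 to 2 in liver there. For rotenone they ran from 0 to 1 in brain, 0 to 2 in liver and 0 to 1 in skin, and for the difference of skin and liver with age from 0 to 1. In the same way rotenone in liver ran from -0.88 to 0.12 for mrc1b and from -2.20 to 0.00 for ncf1, skin against liver from -2.31 to 0.58 for irf8 and from -1.44 to 1.90 for ncf1, and skin minus liver in the rotenone change from -0.12 to 0.81 for mrc1b and from -0.34 to 1.76 for ncf1. Other than where a fish is named above, the cause was not tested. The low counts of ncf1 and irf8 in brain, and 5 fish per group, limit what could be detected there and in liver.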

Other observations

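Whether a fish's level in 1 sample goes with its level in another was looked at after the other results were known, with log2(CPM + 1), group means taken away and fish permuted within groups. Over the 45 fish with both fin clips, CD68 at 20 weeks correlated with CD68 at 10 weeks (Pearson's r = 0.410, permutation p = 0.00303, adjusted over the 6 members 0.0182; Spearman's rho = 0.407, permutation p = 0.00551, adjusted 0.0331). Without the 2 fish farthest from the median r was 0.357. It was 0.492 in the 30 fish of batch 1 and 0.136 in the 15 of batch 2, and the difference between the batches was not tested. For the other 5 members r lay between -0.161 and 0.100. For c1qc rho was 0.297 (permutation p = 0.0469, adjusted 0.141). The members were chosen with earlier results known.

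Over 18 relations between tissues of the same 15 fish of the rotenone arm, the largest r was that of irf8 between liver and skin (r = 0.637, permutation p = 0.00786, adjusted over the 18 relations 0.141; rho = 0.571, permutation p = 0.0189, adjusted 0.34). It was 0.353 without the 2 farthest fish, so it rests on those.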
